A study of Mus musculus with 2 samples.

Results

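Lipid droplet and triglyceride turnover was described by 10 genes, taken as every row of the gene and transcript tables whose identifier maps to Plin1, Plin2, Plin3, Plin4, Plin5, Pnpla2, Lipe, Dgat1, Dgat2 or G0s2. All 10 were found among the 43346 genes listed. Poly(A) RNA of 1 heart, taken from a female adult mouse of strain C57BL/6J, 10 weeks old and with no treatment or engineered allele named, was sequenced in 2 libraries. They are technical replicates 2 and 1 of 1 biological replicate, prepared with an extraction kit for lipid-rich tissue, and replicate 2 was made in 2015 and did not belong to the study's first publication. No group of animals is compared, so every difference given here lies between libraries of the same heart, a mean ± SD covers technical spread (n = 2 libraries), and nothing extends to other mice.

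Cells store fatty acids as triglyceride in lipid droplets, which are coated by perilipins. Diacylglycerol acyltransferases close triglyceride synthesis, and a chain of lipases, opened by adipose triglyceride lipase (Pnpla2) and continued by hormone-sensitive lipase (Lipe) and monoacylglycerol lipase (Mgll), releases the fatty acids again. Heart muscle burns mainly fatty acids and turns over a small triglyceride pool quickly. Plin1 is known as the perilipin of adipocytes and Plin5 as that of oxidative tissues, where droplets lie against mitochondria. Plin2 and Plin3 occur in most tissues, and Plin4 in adipose tissue and muscle.

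Replicate 2 held 19685821 counts and replicate 1 held 22775991, but mitochondrial genes and their nuclear copies took 35.7% of the counts of replicate 2 and 77.9% of those of replicate 1. Other nuclear genes were left with 12654724 counts in replicate 2 and 5028154 in replicate 1. TPM, an abundance corrected for transcript length, sums to a fixed total per library, so the share of mitochondrial genes limits what is left for nuclear genes. Values rescaled to the nuclear genes are called nuclear TPM. The mean GC content of the genes, weighted by nuclear counts, was 50.5% in replicate 2 and 45.0% in replicate 1. Each of the 6 cardiomyocyte markers, led by Myl2, Tnnt2 and Actc1, reached 1 TPM in each library. Their sums were 28849 TPM in replicate 2 and 1026 TPM in replicate 1. In nuclear TPM they were 73790 in replicate 2 and 14208 in replicate 1. None of the 5 skeletal muscle markers reached 1 TPM in each library. Of these, Ckm had 1080 TPM in replicate 2 and 0.68 in replicate 1, and Acta1 had 75.5 in replicate 2 and 0.17 in replicate 1. Tnnt3 had 0.38 TPM in replicate 2 and 0 in replicate 1, and the myosins Myh1 and Myh4 had no count in either. The levels of Ckm and Acta1 alone do not show skeletal muscle RNA, and which cells they came from was not tested.

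The start regions of Lipe and Plin5 are shown because their transcripts, as annotated in GENCODE M21, differ in where they begin. That of Plin2 is shown because Plin2 was the only member whose window held the motif searched. Sequences are from RefSeq (GRCm38.p6), read in the direction of the gene, and all lie on the minus strand. For Lipe and Plin5 they run from 120 bases before to 30 bases after a RefSeq start, with the bases from the start on in capitals.
Lipe, start 6 bases before transcript Lipe-202, chr7:25390083-25390232: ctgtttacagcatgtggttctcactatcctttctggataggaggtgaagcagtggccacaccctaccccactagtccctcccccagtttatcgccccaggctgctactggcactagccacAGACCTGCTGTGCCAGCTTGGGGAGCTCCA
Lipe, start inside transcript Lipe-201, chr7:25395958-25396107: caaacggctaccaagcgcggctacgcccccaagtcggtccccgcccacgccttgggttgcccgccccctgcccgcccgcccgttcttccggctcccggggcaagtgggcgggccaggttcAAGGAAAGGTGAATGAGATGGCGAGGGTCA
Plin5, start of transcript Plin5-202, chr17:56117269-56117418: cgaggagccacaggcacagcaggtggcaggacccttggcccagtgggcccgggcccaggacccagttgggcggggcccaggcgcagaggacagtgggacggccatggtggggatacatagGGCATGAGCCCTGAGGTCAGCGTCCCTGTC
Plin5, start inside transcript Plin5-201, chr17:56117519-56117668: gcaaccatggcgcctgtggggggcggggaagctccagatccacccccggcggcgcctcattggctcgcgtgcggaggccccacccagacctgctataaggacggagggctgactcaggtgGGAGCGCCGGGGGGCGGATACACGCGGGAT
Plin2, the 250 bases before the start, chr4:86670060-86670309, with the motif in capitals: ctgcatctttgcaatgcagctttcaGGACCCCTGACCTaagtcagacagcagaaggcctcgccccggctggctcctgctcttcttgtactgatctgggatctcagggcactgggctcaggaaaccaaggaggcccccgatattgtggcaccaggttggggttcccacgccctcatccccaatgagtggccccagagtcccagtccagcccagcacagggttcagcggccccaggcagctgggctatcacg

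Transcript starts here and in the labels above are those of GENCODE M21. The RefSeq start of the first Lipe window lies 6 bases before the start of Lipe-202, and that of the second lies 392 bases inside Lipe-201. Lipe-201 is 3613 bases long in M21 but 3221 as deposited, and Lipe-202 is 2661 in M21 but 2656 as deposited. The deposited forms may thus begin elsewhere. The first Plin5 start equals that of Plin5-202, and the second lies 48 bases inside Plin5-201. The motif was a direct repeat of AGGTCA with 1 base between the repeats, the form bound by PPAR and RXR nuclear receptors, searched on both strands with up to 2 mismatches. Of 32851 windows of 300 bases around RefSeq starts, 3.86% held it. Of the 10 windows of 8 members, 1 held it, on the opposite strand of Plin2. Dgat1 and Dgat2 have no window in the table used here. A match describes letters in a window and is not a binding site, and its absence says nothing about these receptors.

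The perilipins of oxidative and general tissues far exceeded the adipocyte perilipin in both libraries. Gene coordinates are those of GENCODE M21 on GRCm38 (mm10). Plin3, which moves between cytosol and new droplets (chromosome 17, 56277476 to 56292873), had 63.1 TPM in replicate 2 and 6.93 TPM in replicate 1. Plin5 (chromosome 17, 56111601 to 56117596) had 50.2 TPM in replicate 2 and 2.23 TPM in replicate 1. Plin3 thus had the highest listed TPM of the perilipins in each library. In replicate 2 Plin4 stood close to it, at 60.2 TPM, and Plin3 did not differ from Plin4 beyond the spread between libraries, as judged below.

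Plin4, which coats small droplets (chromosome 17, 56100591 to 56109803), lies 1797 bases from Plin5 on the same strand and had 60.2 TPM in replicate 2 and 1.07 TPM in replicate 1. Plin2, the general droplet coat protein (chromosome 4, 86648386 to 86670060), had 28.3 TPM in replicate 2 and 1.29 TPM in replicate 1. Plin4 was the higher of the pair in replicate 2 and Plin2 in replicate 1. Plin1 (chromosome 7, 79720218 to 79732903) had 2.31 TPM in replicate 2 and 0.04 TPM in replicate 1, from 75 and 2 counts, and had the lowest listed TPM of the members, which in replicate 1 rests on too few counts to place it below G0s2 and Lipe.

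Among the lipases, Pnpla2 (chromosome 7, 141455198 to 141460743) was the highest member of replicate 2 with 175 TPM but stood at 0.87 TPM in replicate 1. Its inhibitor G0s2 (chromosome 1, 193272161 to 193273217) had 51.1 TPM from 675 counts in replicate 2 and 0.05 TPM from 1 count in replicate 1. The whole of G0s2 is overlapped on the opposite strand by Lamb3, which had 322 counts in replicate 2 and 9 in replicate 1. The overlap is one of gene spans. No source says whether strand entered the counting, and how far reads of Lamb3 entered the counts of G0s2 was not tested. Lipe (chromosome 7, 25379527 to 25398710) had 16.6 TPM from 804 counts in replicate 2 and 0.05 TPM from 5 counts in replicate 1. The antisense gene 4732471J01Rik covers the whole span of Lipe and had 0 counts in both libraries, and whether reads of it were counted for Lipe was not tested.

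Of the acyltransferases, Dgat2 (chromosome 7, 99153658 to 99182719), the enzyme that mainly esterifies newly made fatty acids, had 131 TPM in replicate 2 and 5.45 TPM in replicate 1 and ranked second of the members in each. Dgat1 (chromosome 15, 76502015 to 76511953), which also re-esterifies fatty acids released by lipolysis, had 9.37 TPM in replicate 2 and 0.49 TPM in replicate 1. Dgat2 was therefore above Dgat1 in each library. The deposited posterior SD of the gene count, which covers uncertain assignment of reads to genes, was 0 for all 10 members in both libraries.

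**Figure D1:**
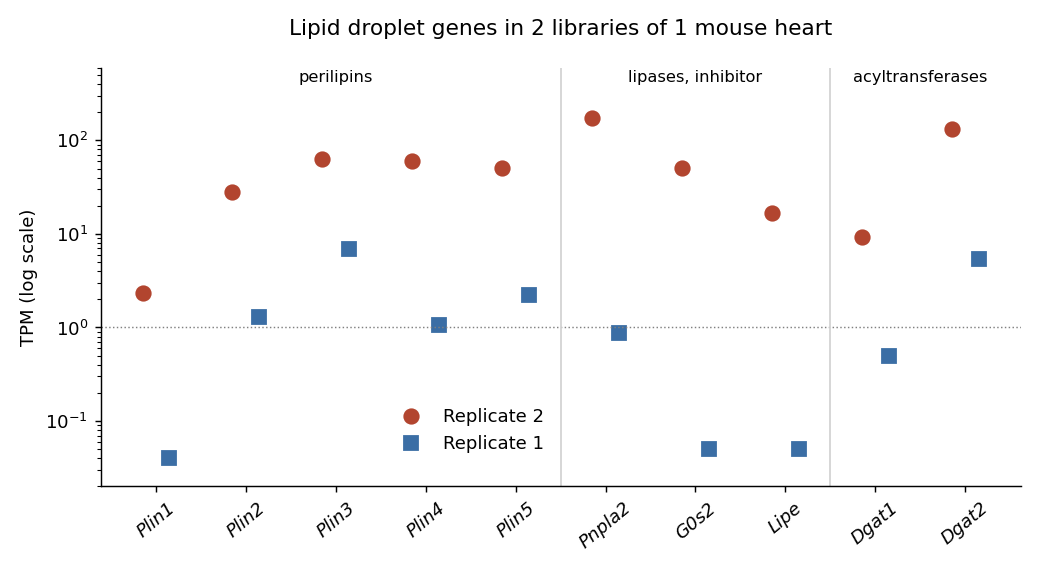
TPM of the 10 members on a log axis, with circles for replicate 2 and squares for replicate 1, grouped into perilipins, lipases with their inhibitor, and acyltransferases; the dotted line marks 1 TPM. All 10 circles lie above 1 TPM and 5 of the squares do, and Plin1 is the lowest circle, while Plin1, Lipe and G0s2 lie close together in replicate 1, from 2, 5 and 1 counts.

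Summed over the members, TPM was 588 in replicate 2 and 18.5 in replicate 1, and nuclear TPM was 1503 in replicate 2 and 256 in replicate 1. At 1 TPM or more stood all 10 members in replicate 2 and 5 in replicate 1, namely Plin2, Plin3, Plin4, Plin5 and Dgat2. By nuclear TPM it was 10 in replicate 2 and 7 in replicate 1. Ranks among nuclear genes were 338 for Pnpla2, 427 for Dgat2 and 847 for Plin3 in replicate 2, and 6596, 2262 and 1874 in replicate 1, where Plin3 led the members. Mean TPM was 88.2 ± 123 for Pnpla2, 68.3 ± 88.9 for Dgat2, 35.0 ± 39.7 for Plin3 and 26.2 ± 33.9 for Plin5 (SD, n = 2 libraries), so each SD exceeded its mean.

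Ordered by mean log2(TPM + 0.1), the members ran Dgat2, Plin3, Pnpla2, Plin5, Plin4, Plin2, G0s2, Dgat1, Lipe and Plin1. No neighbours in this order differed beyond the spread between libraries, which was judged by the same sign in both libraries and a mean difference above its SD. Of all 45 pairs of members, 32 had the same sign in both libraries and 26 also passed that limit. By listed TPM, Plin1 was lower than the 9 others in both libraries and passed the limit against 7 of them. The 1, 2 and 5 counts of G0s2, Plin1 and Lipe in replicate 1 do not order these genes there.

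Ratios of genes within a library do not depend on its depth, and 11 were computed from counts per effective length with exact binomial 95% intervals, which cover counting error only. The ratio of Plin5 over Plin1 was 21.8 (17.3 to 27.8) in replicate 2 and 60.5 (16.4 to 504) in replicate 1. Plin3 over Plin1 stood at 27.4 (21.8 to 34.9) in replicate 2 and at 188 (51.7 to 1557) in replicate 1, where 2 counts of Plin1 set the width. The ratio of Plin4 over Plin1 was 26.1 (20.8 to 33.3) in replicate 2 and 29.0 (7.92 to 241) in replicate 1. That of Plin2 over Plin1 was 12.3 (9.66 to 15.8) in replicate 2 and 35.0 (8.90 to 302) in replicate 1. For all 4 the intervals lay above 1 in both libraries.

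Of the 11 pairs, Plin5 over Plin2 gave the closest match between libraries, 1.77 (1.62 to 1.94) in replicate 2 and 1.73 (1.16 to 2.65) in replicate 1. That match depends on the effective lengths used and changes with an adjustment for GC content, as given below. Plin2 was below Plin3, at 0.45 (0.41 to 0.49) of it in replicate 2 and 0.19 (0.13 to 0.27) in replicate 1. Dgat2 over Dgat1 was 14.0 (12.2 to 16.1) in replicate 2 and 11.2 (7.45 to 17.5) in replicate 1. On the scale of log2(TPM + 0.1), Plin5 over Plin1 averaged 4.22 ± 0.23, Plin5 over Plin2 0.78 ± 0.06 and Dgat2 over Dgat1 3.51 ± 0.40 (SD, n = 2 libraries). At 0.04 TPM in replicate 1, Plin1 lay below the 0.1 added, which drew the values of Plin5 over Plin1 together. By counts per effective length that ratio was 21.8 in replicate 2 and 60.5 in replicate 1, with a mean log2 of 5.18.

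The lipase pair Pnpla2 over Lipe gave 10.6 (9.85 to 11.4) in replicate 2 and 17.1 (6.66 to 55.8) in replicate 1. Pnpla2 over its inhibitor G0s2 gave 3.43 (3.17 to 3.72) in replicate 2 and 19.3 (3.24 to 782) in replicate 1, where G0s2 had 1 count. Pnpla2 was above both in each library. Its ratios to genes outside the 10 did not keep their side of 1. Pnpla2 over its coactivator Abhd5 was 8.54 (7.95 to 9.19) in replicate 2 and 0.11 (0.079 to 0.16) in replicate 1, and Pnpla2 over Mgll was 6.11 (5.80 to 6.44) in replicate 2 and 0.86 (0.57 to 1.27) in replicate 1, where the interval covers 1. In 9 of the 11 pairs the sign was the same in both libraries and the mean log2 ratio exceeded its SD, and these 2 are the exceptions. In replicate 1, Plin1, Lipe and G0s2 lay below the 0.1 TPM added, so the SDs of their pairs depend on it.

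**Figure D2:**
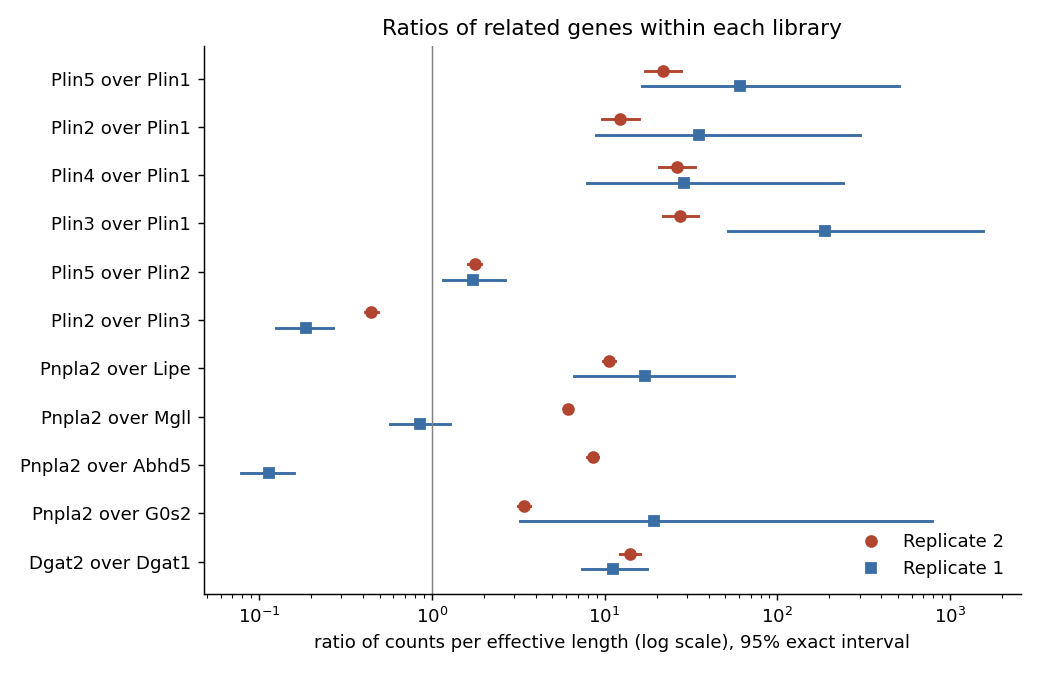
Ratio of counts per effective length of 11 gene pairs within each library on a log axis, with circles for replicate 2 above squares for replicate 1 and lines for the exact 95% interval of counting error. The ratios to Plin1 lie right of 1 in both libraries, while Pnpla2 over Abhd5 lies at 8.54 in replicate 2 and at 0.11 in replicate 1.

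Between the libraries, all 10 members were called higher in replicate 2, against 40.5% of the 13182 tested genes called higher and 24.0% called lower (64.5% in either direction). Genes were called at an adjusted p under 0.05 and at least 2-fold by edgeR's exact binomial test with Benjamini-Hochberg adjustment on TMM-scaled library sizes, which compares these libraries and not conditions. The log2 ratio of replicate 2 over replicate 1 ran from 1.12 for Plin3 to 7.50 for G0s2, with a median of 3.38 over the members and 0.37 over all tested genes. The largest adjusted p was that of Plin1, 5.95e-09. For G0s2, with 675 counts in replicate 2 and 1 in replicate 1, the scaled ratio was 271 with an exact 95% interval from 48.5 to 10720, and for Plin1, with 75 and 2 counts, it was 15.1 (4.03 to 127). Pnpla2 stood at 64.5 (46.4 to 92.8), Lipe at 64.6 (27.6 to 199) and Plin3 at 2.18 (1.97 to 2.42).

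GC content moved with this difference. Its median was 50.1% over the tested genes and 56.3% over the members, and all 10 members lay above that of the tested genes, from 50.9% for Plin2 to 61.3% for Plin1. Of the 2850 tested genes from 50 to 54% GC, where Plin2 and Plin3 lie, 54.8% were called higher in replicate 2. Of the 2533 genes from 54 to 58%, with Plin4, Dgat1, Dgat2 and G0s2, 90.3% were, and of the 1275 at 58% or more, with Plin1, Plin5, Pnpla2 and Lipe, 96.2%. Read against genes of like GC content, 10 of 10 is thus near the background for 8 of the members.

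With the trend of the log2 ratio on GC content removed, 4 members were called higher, against 10.2% of tested genes, and 2 were called lower, against 11.0% (21.2% in either direction). The higher ones were G0s2 with a log2 ratio of 4.13 (adjusted p = 2.08e-09, edgeR), Plin2 with 2.42 (2.50e-32), Pnpla2 with 1.64 (1.77e-15) and Lipe with 1.47 (0.0134). Plin5 with −1.99 (4.37e-35) and Dgat1 with −1.11 (0.00302) were the lower ones. Plin3 with 0.38, Plin4 with 0.64 and Dgat2 with −0.84 stayed under 2-fold, and Plin1 with −1.68 had an adjusted p of 0.282 by the same test. The median over the members was then 0.51, against 0.00 over all tested genes. The shares of called genes given here cover tested genes of every GC content, and genes spread more widely about the trend at high GC. Before removal, the interquartile range of the log2 ratio ran from −1.80 to −1.37 in the bin at 41.5% GC. In the bin at 56.3% GC it ran from 2.19 to 4.53. The share called among genes of like GC content was not computed after removal, so these calls do not set the members apart from such genes.

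**Figure D3:**
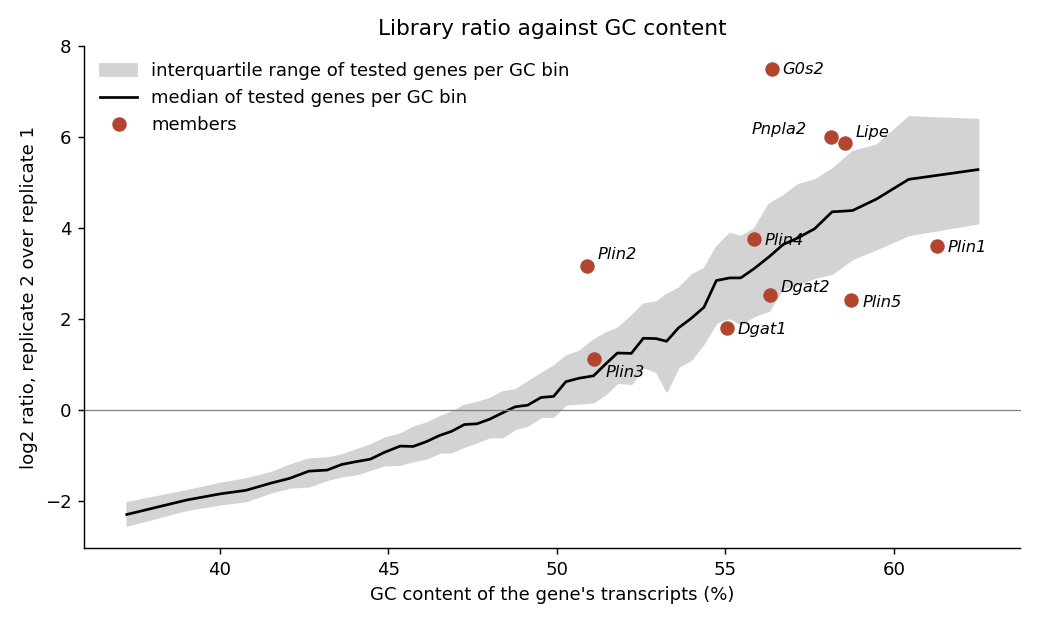
Log2 ratio of replicate 2 over replicate 1 against the GC content of each gene's transcripts, with a line for the median and a grey band for the interquartile range of tested genes in 50 bins of GC content, and labelled points for the 10 members. G0s2, Pnpla2, Lipe and Plin2 lie above the band, and Plin5, Dgat1 and Plin1 lie below it.

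A similar step in the pair ratios brought replicate 1 to the GC profile of replicate 2. Its trend was fitted anew on log2(TPM + 0.1), so it is not the trend removed in the library test. By construction it moves only pairs whose genes differ in GC content. On the log2(TPM + 0.1) scale, Plin5 over Plin2 was 0.82 in replicate 2 and 0.75 in replicate 1, but 3.27 in the adjusted replicate 1. Plin5 over Plin1, at 4.38 in replicate 2 and 4.06 in replicate 1, was 4.05 after adjustment. Plin1 had 0.04 TPM in replicate 1, below the 0.1 added. Ratios to Plin1 there rest mostly on the added value and do not show how far they depend on GC content. Plin2 over Plin1 was 3.56 in replicate 2, 3.31 in replicate 1 and 0.78 after adjustment. Pnpla2 over Abhd5, at 3.09 in replicate 2 and −2.99 in replicate 1, was 0.45 after adjustment. Dgat2 over Dgat1 kept 3.49, beside 3.79 in replicate 2 and 3.23 in replicate 1 unadjusted. For Plin5 over Plin2, the close values of the libraries as deposited were thus not kept by the adjusted ones.

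Transcripts were compared by the deposited share of each gene's abundance. Of the 36 annotated transcripts, Plin3, Dgat2 and G0s2 have 1 each, and of the other 7 members 2, Plin1 and Dgat1, were led by 1 and the same transcript in each library. Posterior mean shares gave the same count. Replicate 1 had from 2 counts (Plin1) to 193 (Plin4) for these 7 genes, so its shares rest on few reads.

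Lipe was led by Lipe-202 in replicate 2 with 92.4% of abundance, from 729 counts with a posterior SD of 18.6, while all 5 counts of replicate 1 were given to Lipe-201. In GENCODE M21, Lipe-202 begins at base 25390106, next to the first of the Lipe starts printed above. By that annotation it shares 2616 bases with Lipe-201, which has 997 bases of its own. The forms that begin farthest upstream, Lipe-203 and Lipe-204, took 0 and 0.26% in replicate 2 and 0 in replicate 1. By posterior mean shares, Lipe-201 took 43.45% in replicate 1, Lipe-202 20.06%, Lipe-203 25.75% and Lipe-204 10.74%. The 5 counts thus do not settle which Lipe form led there. In replicate 2, Plin5 was split evenly, with 50.6% for Plin5-202 and 49.5% for Plin5-201 (882 and 862 counts, posterior SD 75.3 for each), whereas replicate 1 gave all 130 counts to Plin5-201 with a posterior SD of 27.9. The posterior mean shares of replicate 1 were 65.3% for Plin5-201 and 34.7% for Plin5-202. Each of these Plin5 forms is 1986 bases long, with 1885 bases shared and 101 of its own.

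Pnpla2 was led in replicate 2 by Pnpla2-201 with 56.5% (3563 counts, posterior SD 96.6), a form the annotation marks as a target of nonsense-mediated decay. It differs from the coding form Pnpla2-202 by 251 additional bases. Coding forms together took 42.1% of Pnpla2 in replicate 2, and in replicate 1 all 35 counts went to coding forms, 30.0 of them to Pnpla2-203. By share of abundance the short coding form Pnpla2-205 led replicate 1 with 56.3% from 5.03 counts, and Pnpla2-203 had 43.7%. Pnpla2-206, a shorter coding form, took 18.5% in replicate 2 and 0 in replicate 1.

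For Plin2 the full coding form Plin2-201 took 68.0% in replicate 2 (633 counts) and 23.7% in replicate 1 (16.9 counts), and Plin2-208, annotated without a coding sequence, took 28.2% in replicate 2 and 47.7% in replicate 1. Plin2-208 is 588 bases long against 1888 for Plin2-201, so its share of abundance is larger than its share of counts, 61.6 in replicate 2 and 8.00 in replicate 1. Dgat1-201 took 54.3% in replicate 2 and 84.4% in replicate 1, and forms with a retained intron took 43.8% in replicate 2 and 15.6% in replicate 1 (51.4 and 2.29 counts). By posterior mean shares Dgat1-201 took 43.89% in replicate 2 and 36.45% in replicate 1, the reverse order. The shares of Dgat1 forms thus do not show a difference between the libraries. Plin4-202 took 100% in replicate 2 and 30.1% in replicate 1, but Plin4-202 and Plin4-201 share 5734 bases of 5756 and 5755 and the posterior SD of either in replicate 1 was 55.7 counts of 193.

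**Figure D4:**
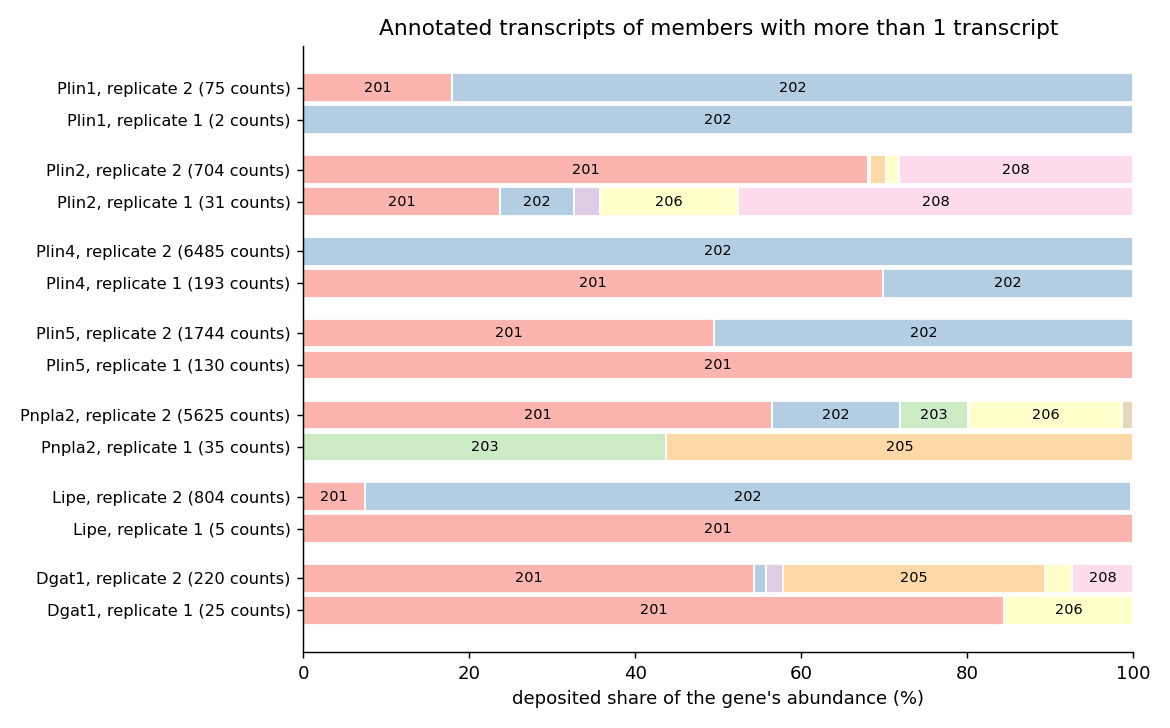
Deposited share of each gene's abundance by annotated transcript, as stacked bars from 0 to 100% for the 7 members with more than 1 transcript, replicate 2 above replicate 1, with the gene's counts beside each bar and transcript numbers inside the larger segments. Lipe-202 fills 92.4% in replicate 2, from 804 counts of Lipe, and has a deposited share of 0 in replicate 1, from 5 counts of Lipe.

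A gene's effective length, and so its TPM, depends on these shares. The effective length of Plin2 was 1286 bases in replicate 2 and 741 in replicate 1, and that of Pnpla2 was 1658 in replicate 2 and 1244 in replicate 1. With the lengths of replicate 2 used in both libraries, a step chosen after seeing the data, the mean log2 ratio of Plin5 over Plin2 was 1.21 in place of 0.78.

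Other genes of the pathway were read from lists and tested in the same comparison over all genes. Of 19 genes of triglyceride synthesis, 10 reached 1 TPM in each library. Among the 16 tested, 7 were called higher and 3 lower in replicate 2 and 6 were not called. With the GC trend removed 2 were higher and 1 lower, and the median log2 ratio was 0.68 before and 0.30 after. Acsl1, which activates long-chain fatty acids, had 209 TPM in replicate 2 and 50.3 in replicate 1, or 535 nuclear TPM in replicate 2 and 697 in replicate 1, and was not called. The acyltransferase Agpat3 had 60.7 TPM in replicate 2 and 2.54 in replicate 1, and Gpam, which opens the pathway, had 35.1 TPM in replicate 2 and 2.82 in replicate 1.

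Of 15 genes of lipolysis and its regulators, 7 reached 1 TPM in each library, 5 were called higher in replicate 2, 1 lower and 9 not called, and 2 higher and 2 lower with the GC trend removed. Their median log2 ratio was 0.87, and 0.21 after removal. Lpl, which frees fatty acids from blood lipoproteins, had 1382 TPM in replicate 2 and 900 TPM in replicate 1, but 3534 nuclear TPM in replicate 2 and 12469 in replicate 1. It was the gene called lower in replicate 2, with a log2 ratio of −1.45, and −0.26 with the GC trend removed. In replicate 2 the carboxylesterase Ces1d had 102 TPM, the protein kinase A subunit Prkaca 84.2, Mgll 28.7 and Abhd5 20.6, and in replicate 1 they had 12.5, 3.19, 1.01 and 7.62 TPM. Abhd5, with 46.9% GC, was the higher of it and Pnpla2, with 58.1% GC, in replicate 1 alone.

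Of 10 genes of droplet formation and fusion, 9 were matched (Ldaf1 was not) and 3 reached 1 TPM in each library. Of the 8 tested, 5 were called higher in replicate 2, 1 lower and 2 not called, and with the GC trend removed 1 higher and none lower. Their median log2 ratio was 2.53, and −0.10 after removal. The small GTPase Rab18 had 42.9 TPM in replicate 2 and 40.2 TPM in replicate 1, but 110 nuclear TPM in replicate 2 and 557 in replicate 1. It was the gene called lower in replicate 2, with a log2 ratio of −1.97, and −0.48 with the GC trend removed. The fat storage-inducing proteins Fitm1 and Fitm2 had 71.1 and 55.2 TPM in replicate 2 and 0.24 and 9.93 TPM in replicate 1. Among 7 regulators of transcription, led by Ppargc1a (26.8 TPM in replicate 2 and 13.1 in replicate 1), Mlxipl (17.6 in replicate 2 and 0.43 in replicate 1) and Rxra (15.1 in replicate 2 and 0.46 in replicate 1), 2 reached 1 TPM in each library. In replicate 2, 5 were called higher, 1 lower and 1 not called. The lower one was Ppargc1a, with 68.5 nuclear TPM in replicate 2 and 182 in replicate 1 and a log2 ratio of −1.31. With the GC trend removed none was called in either direction, and the median log2 ratio was 0.03, against 2.95 before.

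Adipocyte markers were found at widely differing levels. Of 8 white adipocyte markers, 2 reached 1 TPM in each library. The levels of all 8 added up to 428 TPM in replicate 2 and 64.6 TPM in replicate 1. In nuclear TPM they came to 1095 in replicate 2 and 895.5 in replicate 1. Of the 6 tested, 4 were called higher in replicate 2, and 2 with the GC trend removed. Most of this sum was Fabp4 (383 TPM in replicate 2 and 63.2 in replicate 1), which endothelial cells also express. The complement factor Cfd had 24.4 TPM in replicate 2 and 0.08 TPM in replicate 1, from 347 and 2 counts. Adiponectin (Adipoq), a defining marker, had 8.29 TPM in replicate 2 and 1.26 TPM in replicate 1, from 177 and 45 counts. In nuclear TPM it stood at 21.2 in replicate 2 and 17.5 in replicate 1, and at a log2 ratio of 0.65 it was not called.

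Leptin (Lep) had 3 counts in each library, and the droplet fusion protein Cidec had 165 counts in replicate 2 and none in replicate 1, where a count of 0 allows up to 3. On TMM-scaled library sizes Cidec was at least 17.8-fold higher in replicate 2, the lower end of its exact 95% interval. Of 5 brown adipocyte markers 2 reached 1 TPM in each library, Ucp1 with 13.0 TPM in replicate 2 and 1.52 in replicate 1, and Cox8b, a subunit that heart muscle also expresses, with 1400 TPM in replicate 2 and 5.75 in replicate 1. Cidea had 18.8 TPM in replicate 2 and 0.60 in replicate 1. Of the 4 brown adipocyte markers tested, 3 were called higher in replicate 2 and 1, the deiodinase Dio2, lower (0.80 TPM in replicate 2 and 0.53 in replicate 1, log2 ratio −1.47). With the GC trend removed 2 were higher and Dio2, at −0.16, was not called. Adipocytes also express Plin1, Plin4, Lipe, Pnpla2 and G0s2. The part of adipocyte RNA in these levels, or in those of the other members, was not tested. In bulk RNA, fewer cells of a type and less RNA per cell cannot be told apart.

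**Figure D5:**
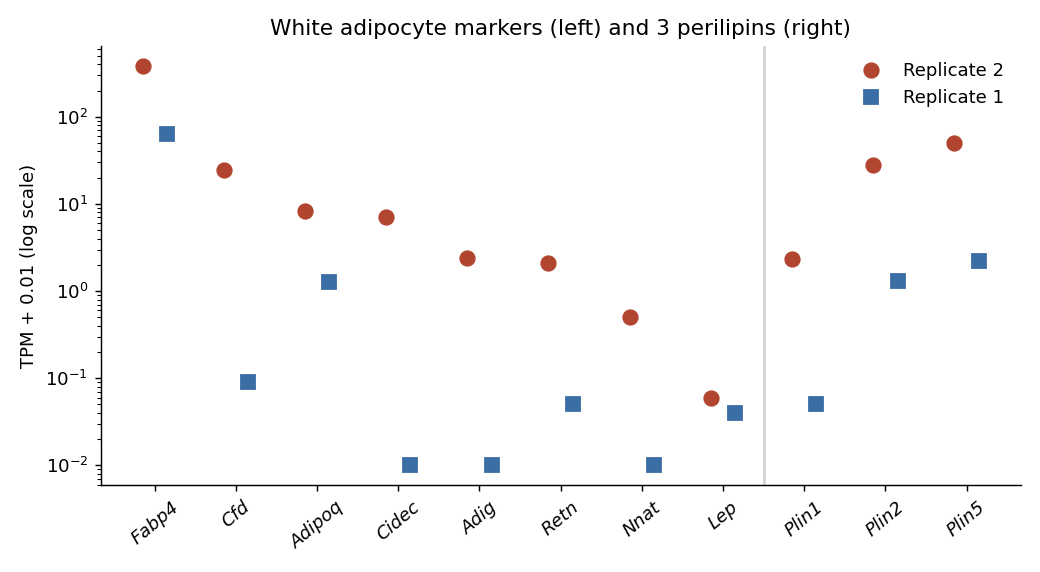
TPM + 0.01 of the 8 white adipocyte markers and of 3 perilipins on a log axis, with circles for replicate 2 left of squares for replicate 1. Fabp4 is the highest point of each library, and Cidec, Adig and Nnat lie at the floor in replicate 1, where they had no count.

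Markers of other cell types were also present. The 5 macrophage markers reached 144 TPM together in replicate 2 and 12.6 TPM in replicate 1 (led by Lyz2, C1qa and Csf1r, with 1 of them at 1 TPM in each). Endothelial markers, led by Egfl7, Pecam1 and Cdh5, reached 232 TPM together in replicate 2 and 20.5 TPM in replicate 1. In nuclear TPM the macrophage sum was 367 in replicate 2 and 175 in replicate 1. The endothelial sum was 594 nuclear TPM in replicate 2 and 284 in replicate 1. The 5 fibroblast markers, led by Dcn, Mgp and Lum, reached 722 TPM together in replicate 2 and 191 TPM in replicate 1, but 1847 nuclear TPM in replicate 2 and 2650 in replicate 1, with a median log2 ratio of −0.59. The 4 liver markers, led by Alb, Cyp3a11 and Apoa1, had 27.7 TPM together in replicate 2 and 3.68 TPM in replicate 1. In nuclear TPM they had 70.9 in replicate 2 and 51.0 in replicate 1. The part of these cell types in the levels of Plin2 and Plin3, which most cell types express, was not tested.

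The nuclear genes closest in level to Pnpla2 over the 2 libraries, by distance in log2(TPM + 0.1), were Tecr (0.21), Hspb1 (0.22) and Drap1 (0.23). Those closest to Plin5 were Poldip2 (0.08), Prkag1 (0.12) and Psmc5 (0.14). Tecr had 173 TPM in replicate 2 and 1.02 in replicate 1. With 2 libraries of 1 heart, such likeness describes levels only.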

How the data were processed

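RNA-seq tables of 2 libraries of 1 mouse heart were used. The build is mm10 with annotation M4, per the deposited file descriptions, and neither these nor the labels name the aligner or counter. Expected counts, TPM, FPKM (not used for results) and the percent of a gene's abundance per transcript are as the authors deposited them, beside lengths in bases and posterior SDs of counts. The authors' TPM is corrected for effective length and scaled to a fixed sum per library. Identifiers were matched without version to GENCODE M21 on the same assembly (42462 genes with a symbol), which gave symbols, coordinates (1-based) and transcript GC content. Of the 36 transcripts of the members, 31 have the deposited length in M21. Plin3-201, the only counted transcript of Plin3, is 2159 bases long as deposited but 3645 in M21. The GC content of Plin3 and its ratio with the GC trend removed thus rest on the longer form.

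Mitochondrial genes and 11 nuclear copies (blastn 2.17.0, at least 95% identity over 90% of length) were set aside for nuclear TPM. Expected counts were rounded, and genes with at least 20 counts over both libraries (13182) were tested by edgeR 4.0.16 (R 4.3.3), an exact binomial test with 0.5 counts added for ratios, TMM scaling and Benjamini-Hochberg adjustment; very large totals used a chi-square approximation. DESeq2 1.42.0 size factors served as an alternative. GC content per gene is the TPM-weighted mean over transcripts. To remove its trend, the median log2 ratio of each of 50 GC bins was subtracted from the genes of that bin. The step was tested on simulated counts. Depth was 19685821 counts in replicate 2 and 22775991 in replicate 1. Intervals are 95% exact (Python 3.11.15, scipy 1.17.1) for counting error alone, as reads are not separate molecules.

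Named genes were all 10 members, both genes of each pair, the 3 genes of highest mean TPM per list, genes at 0 in both libraries where absence is reported, the 3 genes nearest in level to Pnpla2 and Plin5, and leading transcripts. Cidec, Lep, Adig, Nnat, Dio2 and transcripts that do not lead were named after their values were seen. The members, lists, pairs and tests were chosen with earlier results of these data known. Protein sequences were not analysed here.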

Additional observations from a re-analysis of the deposited data

How the results depend on the processing

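No paired analysis was possible because the 2 libraries are technical replicates of 1 sample in 1 group. The direction of the library difference held for all 10 members under other scalings, filters and posterior mean counts; only removal of the GC trend turned it, for Plin1 (−1.68), Plin5 (−1.99), Dgat1 (−1.11) and Dgat2 (−0.84), and left 4 members called higher. That step left 1349 genes called higher and 1444 lower in replicate 2, against 5338 and 3158 as tested; without the 2-fold limit 4765 were lower. At 100 counts or more, 4159 of 10481 tested genes were called higher, and so were the 9 members tested.

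Mean log2 pair ratios moved beyond their SD as follows, except those of Pnpla2 over Abhd5 (0.05 ± 4.30 as reported) and over Mgll (1.21 ± 1.98), which stayed within their SD but changed sign. With 1 TPM added, Plin5, Plin2, Plin4 and Plin3 over Plin1 were 2.79, 2.14, 2.60 and 3.60, Plin5 over Plin2 0.65, Pnpla2 over Lipe 2.08, Pnpla2 over G0s2 1.30 and Dgat2 over Dgat1 2.89. With 0.01 TPM added, Plin5, Plin2 and Plin3 over Plin1 were 4.96, 4.16 and 5.94, Pnpla2 over Lipe 3.64 and Pnpla2 over Abhd5 −0.011. Nuclear TPM gave 4.99, 4.19, 5.97, 3.67 and −0.014 for the same pairs. Counts per effective length gave 5.18, 4.37, 6.16, 3.75 and −0.02, and 3.02 for Pnpla2 over G0s2. The lengths of replicate 2 gave 5.18, 3.98 and 6.17 for the ratios to Plin1, 1.21 for Plin5 over Plin2 and −0.23 for Pnpla2 over Abhd5. Posterior mean TPM gave 0.48 for Plin5 over Plin2 and 2.90 for Dgat2 over Dgat1. The GC adjustment gave 2.17 for Plin2 and 3.91 for Plin3 over Plin1 and 2.05 for Plin5 over Plin2. Leaving out a library gave −0.19 to 2.61 for Pnpla2 over Mgll and −2.99 to 3.09 for Pnpla2 over Abhd5. The causes were not tested. Few counts in replicate 1, 1 to 35 for G0s2, Plin1, Lipe, Dgat1, Plin2 and Pnpla2, limit every value there.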
